A study of Mus musculus with 4 samples.

Results

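This account covers 34 genes that mark T lymphocytes and natural killer (NK) cells, followed in injured mouse abdominal aorta. They were taken by symbol from the 37074 gene names of the array, and each gene was represented by its brightest probe among those that the scanner software called well above background on 2 or more arrays. Of the 34 genes, 25 had such a probe and were tested, within a table of 22497 tested genes, and 9 did not. A gene could enter on the strength of the group where it is bright, so the 25 are the measurable genes and not the whole set. The study compared abdominal aortic tissue of male mice aged 12 weeks, taken 4 weeks after CaPO4 was applied to provoke an aneurysm-like injury. Arrays labelled W2 and W3 carried RNA of wild-type mice and arrays labelled K4 and K5 carried RNA of SR-A1-/- mice, which lack scavenger receptor A1 of macrophages (gene Msr1). All 4 received CaPO4, so no uninjured aorta stands beside them. The labels name neither the strain nor the allele, and they do not say whether an array is 1 animal or a pool, nor which arrays belong to either of the 2 independent experiments that the design mentions, so every p-value measures the spread between these arrays alone.

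A T cell recognises peptides held by MHC molecules through a receptor whose antigen-binding chains are carried by the CD3 proteins and the zeta chain, encoded by Cd3d, Cd3e, Cd3g and Cd247. The cytoplasmic tails of those proteins hold immunoreceptor tyrosine-based activation motifs (ITAMs). The kinase Lck, brought in by CD4 or CD8, phosphorylates their tyrosines, the kinase ZAP-70 docks on them and is activated, and ZAP-70 phosphorylates the adaptor LAT. NK cells carry no rearranged receptor and read activating and inhibitory lectin-like receptors, while sharing the killing machinery of granzymes and perforin with CD8 T cells. T cells are found in the adventitia and perivascular tissue of injured and atherosclerotic arteries.

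The ITAM can be read in the probes themselves. The probes below are shown because they target the receptor tails and differed in whether they were above background. Among 57 probes of the 34 genes, 2 hold a pair of stretches of 4 codons in 1 stop-free frame, each made of a tyrosine codon, any pair of codons and a leucine or isoleucine codon, with 6 to 8 codons between the stretches. Only the strand of the probe was searched, and 45 of all 56605 probes (0.0795%) hold such a pair. Capitals mark the stretches, which lie 7 codons apart in both probes.
Cd3d: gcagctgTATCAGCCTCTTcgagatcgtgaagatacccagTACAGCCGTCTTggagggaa
Cd247: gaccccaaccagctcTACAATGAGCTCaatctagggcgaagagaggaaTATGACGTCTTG
The Cd3d probe starts at base 537 of transcript NM_013487 and spans chr9:44794171-44794402 of mm9, and the Cd247 probe starts at base 346 of NM_031162 and spans chr1:167786567-167787585. The Cd3d probe was above background on all 4 arrays, at -3.43 and -3.77 on W2 and W3 and at -2.22 and -1.79 on K4 and K5, as log2 signal minus the 75th percentile of that array, the scale of all levels given here. The Cd247 probe was above background on none.

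Cd3d and Cd3g lie side by side in opposite orientation, with start sites 1355 bases apart, and both read higher on the arrays labelled SR-A1-/-, as did Zap70. Their promoters are shown for that reason, as the 250 bases before the start from RefSeq (build GRCm38.p6), 5′ to 3′ along the gene. Capitals mark matches, on either strand, to 5 sets of letters, none of which overlap in these windows. The letters AGGAAG are bound by factors of the ETS family, which are abundant in lymphocytes. The RUNX family, needed for CD4 and CD8 lineage choice, binds the letters TGTGGT. The family of TCF-1 and LEF-1, which acts from the earliest T cell progenitors on, binds the letters CTTTGA. For the GATA family, to which the set's own Gata3 belongs, the letters AGATAA were searched. For the E proteins, which drive early lymphocyte development, the letters CACCTG were searched.
Cd3d, chr9:44981536-44981785, plus strand: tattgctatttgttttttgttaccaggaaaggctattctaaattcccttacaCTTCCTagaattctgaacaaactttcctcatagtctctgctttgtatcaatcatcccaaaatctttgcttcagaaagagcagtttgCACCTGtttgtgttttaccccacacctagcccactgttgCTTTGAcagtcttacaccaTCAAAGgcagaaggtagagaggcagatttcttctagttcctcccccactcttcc
Cd3g, chr9:44980432-44980681, minus strand: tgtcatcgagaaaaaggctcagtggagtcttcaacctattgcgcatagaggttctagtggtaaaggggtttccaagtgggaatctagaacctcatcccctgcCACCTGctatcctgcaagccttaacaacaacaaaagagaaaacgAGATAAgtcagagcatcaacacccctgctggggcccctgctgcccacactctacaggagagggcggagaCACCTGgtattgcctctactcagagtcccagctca
Zap70, chr1:36761548-36761797, plus strand, the most upstream of 3 listed starts: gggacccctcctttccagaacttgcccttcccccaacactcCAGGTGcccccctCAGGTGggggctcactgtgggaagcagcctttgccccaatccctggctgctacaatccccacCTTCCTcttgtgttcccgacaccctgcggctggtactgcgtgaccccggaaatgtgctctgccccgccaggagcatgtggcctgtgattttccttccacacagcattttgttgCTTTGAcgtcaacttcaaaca
CTTTGA begins 73 and 54 bases before the start of Cd3d (plus and minus strand) and 21 bases before that of Zap70. Over the 33 windows of the 26 genes with an entry, ETS letters were found in 51.5%, against 29.5% of all 32851 windows of the same length. RUNX letters were found in 33.3% against 14%, E protein letters in 36.4% against 17.2%, TCF/LEF letters in 6.06% against 13.8% and GATA letters in 6.06% against 9.99%. These matches describe the letters only.

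The 4 arrays came from 1 slide and 1 scan time, and their 75th percentile signal was lower on W2 and K5 (132 and 132.5) than on W3 and K4 (219.9 and 244.7). Between 57.6% and 62.6% of probes were well above background. Msr1 went against the labels: its probe starting at base 3231 read -5.3 on W2, where it was not above background, and -2.1, -1.26 and -2.09 on W3, K4 and K5, and the probe at base 624 read -6.4, also below background there, and -2.12, -1.5 and -1.38. The files do not place the deletion relative to the probes, so directions here refer to the labels only. With 2 arrays against 2 the smallest exact two-sided permutation p is 0.333, so a fit across all genes with limma was used. None of the 22497 genes passed an adjusted p of 0.05 (0%), including all 25 tested here, among which Zap70 had the lowest adjusted p, 0.286.

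Measured T and NK cell genes read higher on the arrays labelled SR-A1-/- more often than lower. Both of those arrays lay above both arrays labelled wild type for 14 of the 25 genes (56%), against 16.1% of all tested genes, and both lay below for 0, against 13.7%. Tcf7 entered only through K4 and K5, where it is high. Without it 13 of 24 genes were higher without overlap. An unadjusted p under 0.05 was reached by 8 genes, all of them higher (32%, against 3.84% of all genes in that direction), and by 0 lower genes (2.45% of all genes). A difference of at least 2-fold without overlap was found for 8 genes as well (3.96% of all genes). Klrk1, Zap70, Icos, Cd3g, Il2rb, Nkg7 and Gata3 belong to both groups of 8, Cd3d only to the former and Cd2 only to the latter. The median difference was 0.58 on the log2 scale over the 25 genes and -0.0057 over all genes. With normexp background correction, which draws dim values together, the median was 0.18 and 2 genes had an unadjusted p under 0.05. Leaving out K4 or K5 gave medians of 0.67 and 0.49, and the lone array of that group then had no spread of its own. The genes were picked with earlier results of these arrays known, so the counts describe the set and are no test of it. In tissue RNA, more lymphocytes and more transcript per lymphocyte cannot be told apart.

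**Figure D1:**
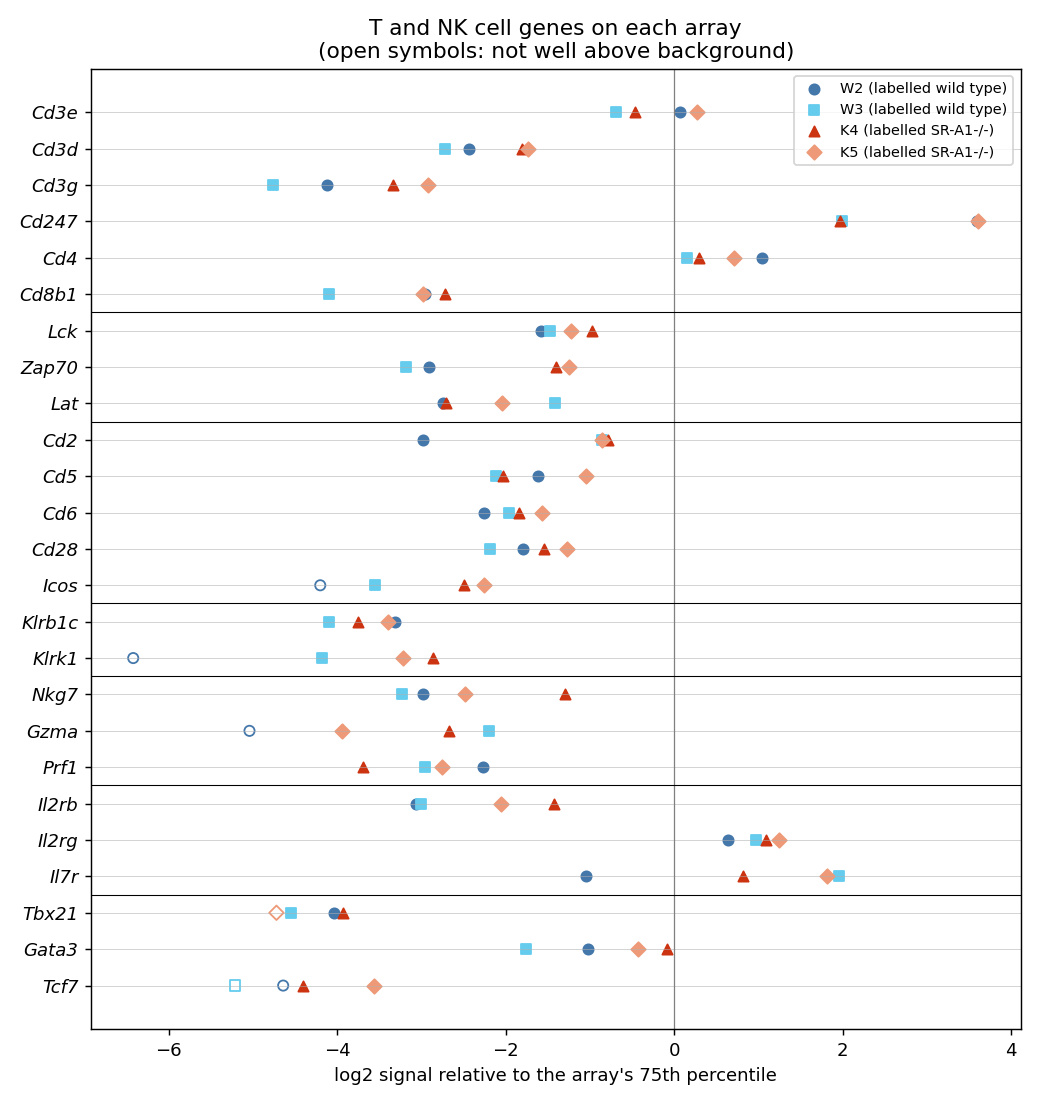
Level of each of the 25 tested genes on each array, as log2 signal minus the 75th percentile of that array, grouped by role; blue symbols are the arrays labelled wild type, red symbols those labelled SR-A1-/-, and open symbols were not well above background. For Zap70 the red symbols lie at -1.4 and -1.25 and the blue ones at -2.91 and -3.18, while for Cd247 the blue symbols lie at 3.6 and 1.99 and the red ones at 1.97 and 3.61.

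Among the receptor chains and coreceptors, the CD3 gamma and delta genes stood higher on the arrays labelled SR-A1-/-, and the others did not separate. Cd3g, which encodes the gamma chain, read -4.12 on W2 and -4.76 on W3 against -3.34 on K4 and -2.92 on K5, a difference of 1.31 ± 0.36 (limma standard error, 2 arrays per group, adjusted p = 0.597). The groups did not overlap, although all 4 values were near the dim end of the array. Cd3d, the delta chain, read -2.43 and -2.72 against -1.81 and -1.73, a difference of 0.81 ± 0.29 (adjusted p = 0.74), again without overlap. Cd3e, the epsilon chain, read 0.07 on W2, -0.69 on W3, -0.46 on K4 and 0.27 on K5, so that the groups overlapped in part, at 0.22 ± 0.43. Cd8b1, the CD8 beta chain of cytotoxic T cells, read -2.96 and -4.1 against -2.72 and -2.98, and the array W2 lay between those labelled SR-A1-/- (difference 0.68 ± 0.46). Cd8a, the alpha chain, had 2 probes, and neither was above background on any array.

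Cd247 and Cd4 have to be read with care. The probe that stands for Cd247, at base 1009 of NM_001113391, read 3.6 on W2 and 3.61 on K5 but 1.99 on W3 and 1.97 on K4. It followed the signal level of the arrays and not the labels, with a difference of -0.01 ± 0.78, and the other 3 probes of Cd247, among them the ITAM probe printed above, were above background on none of the arrays. For Cd4, the helper coreceptor, the probe at base 3035 read 1.04 and 0.15 against 0.3 and 0.71 (difference -0.09 ± 0.41). Its other 2 probes were above background on no array. Without these bright Cd247 and Cd4 probes, a choice made after seeing the values, 23 genes remained with a median of 0.68.

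Zap70 gave the clearest separation of the proximal signalling genes. It encodes the kinase that docks on phosphorylated ITAMs, and its probe at chr1:36839542-36839601 (mm9) read -2.91 on W2 and -3.18 on W3 against -1.4 on K4 and -1.25 on K5. The difference was 1.72 ± 0.29, or 3.28-fold, with an unadjusted p of 0.00199 and an adjusted p of 0.286. Its second probe, at base 1939 of the transcript, read -4.42 and -4.44 against -3.44 and -2.87, the same direction without overlap, with W2 below background. Leaving out each array in turn gave differences between 1.58 and 1.85, and normexp gave the lowest of any setting, 0.74. Lck, the kinase upstream of ZAP-70, read -1.58 and -1.47 against -0.98 and -1.22, which do not overlap, but the difference of 0.42 ± 0.28 did not pass (unadjusted p = 0.196). Lat, the adaptor downstream, read -2.74 and -1.41 against -2.71 and -2.04, with the lowest and highest values both on arrays labelled wild type (difference -0.31 ± 0.55). None of the 4 probes of Themis, a signalling protein of developing T cells, was above background on any array.

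Costimulatory and surface receptors leaned the same way. All 5 tested genes had a positive difference, and 4 of them did not overlap (16.1% of all genes), Cd2 by only the gap between -0.86 and -0.85. Icos, the inducible costimulator of activated and follicular helper T cells, read -4.2 on W2, where it was not above background, and -3.55, -2.49 and -2.26 on W3, K4 and K5, a difference of 1.5 ± 0.35 (adjusted p = 0.48). Cd28, the costimulatory receptor that signals beside the T cell receptor, read -1.79 and -2.19 against -1.55 and -1.27, a difference of 0.58 ± 0.31. Both genes lie on chromosome 1 beside Ctla4, which encodes the inhibitory receptor of the same ligands as CD28 and whose probe was above background on none of the arrays. Cd6 and Cd5, neighbours on chromosome 19 that encode scavenger-domain receptors tuning T cell activation, differed by 0.41 ± 0.30 and 0.33 ± 0.44. Cd5 overlapped between groups, at -1.62 and -2.11 against -2.03 and -1.04. Cd2, an adhesion receptor of T and NK cells, read -2.98 on W2 and -0.86, -0.79 and -0.85 on W3, K4 and K5. Its difference of 1.1 ± 0.73 came from W2 alone, since without that array it was 0.04.

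**Figure D2:**
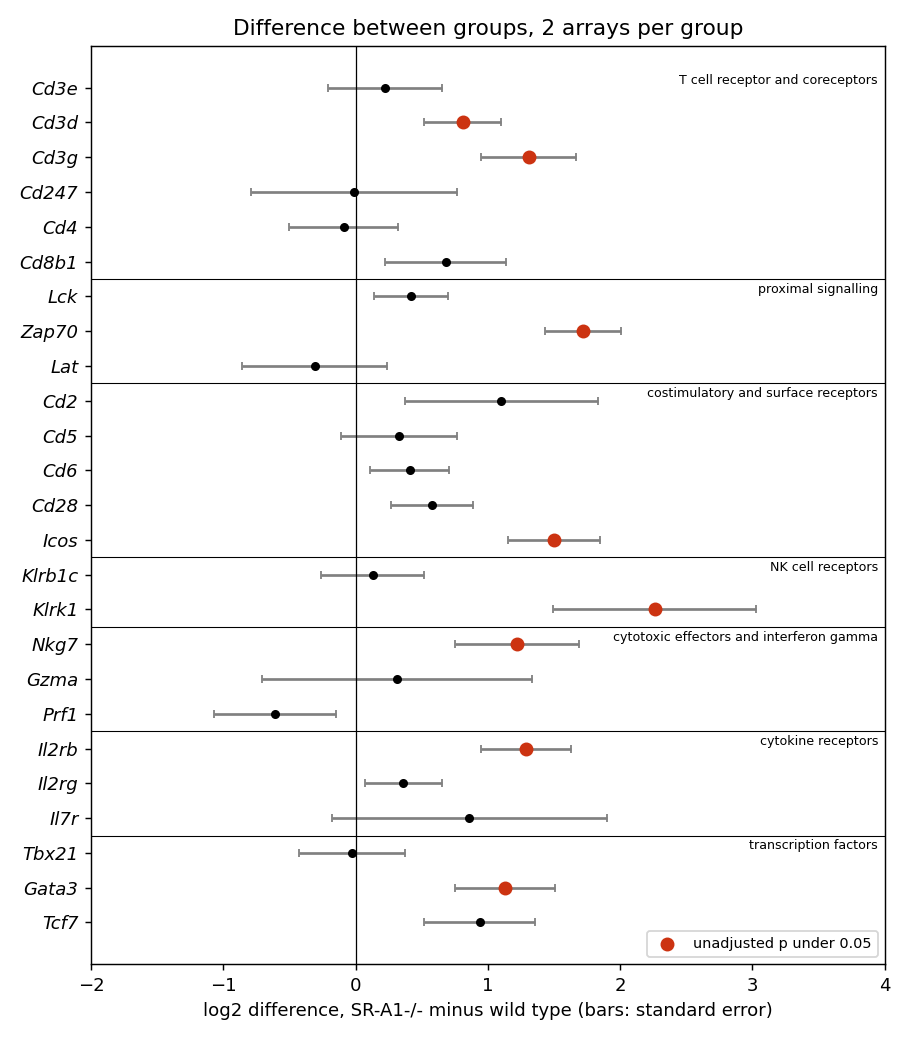
Difference between the groups for each tested gene, on the log2 scale as SR-A1-/- minus wild type by the labels; points are limma estimates from 2 arrays per group, bars are 1 standard error, and red points have an unadjusted p under 0.05. The 8 red points lie between 0.81 (Cd3d) and 2.26 (Klrk1), and Prf1, at -0.61, is the lowest of all.

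The 4 NK cell receptor genes of the set were mostly at the limit of detection. Klrk1, which encodes the activating receptor NKG2D of NK and CD8 T cells, was not above background on W2, at -6.42, and read -4.18 on W3, -2.86 on K4 and -3.22 on K5. The difference was 2.26 ± 0.77 (adjusted p = 0.713), and 1.18 when W2 was raised to the lowest signal called above background on that array. Klrb1c, the NK1.1 antigen of some strains, overlapped between groups, at -3.31 and -4.1 against -3.75 and -3.39 (difference 0.13 ± 0.39). Klrd1, the CD94 partner chain of NKG2 receptors, was above background on K4 alone, and Ncr1, the NKp46 receptor that marks NK cells most strictly, on none. Of the NK cell markers in the set, Ncr1 and Eomes were below background on every array, while Klrb1c and Nkg7 were above it on every array.

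The cytotoxic genes differed in sign among themselves. Nkg7, a granule membrane protein of cytotoxic lymphocytes, read -2.98 and -3.23 against -1.29 and -2.48, a difference of 1.22 ± 0.47 (unadjusted p = 0.0496, adjusted p = 0.792). Prf1, the pore-forming perforin, read -2.27 and -2.96 against -3.69 and -2.76, with the groups overlapping at a difference of -0.61 ± 0.46. Gzma, the granzyme A protease, was not above background on W2 and read highest on W3, with values of -5.04 and -2.2 against -2.67 and -3.94. Its difference of 0.31 ± 1.02 became -0.08 with W2 raised to the lowest signal called above background. Gzmb and Ifng, which encode granzyme B and interferon gamma, were above background on no array.

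Of the cytokine receptors, Il2rb separated the groups. It encodes the beta chain shared by the receptors for interleukins 2 and 15, and read -3.06 and -3.01 against -1.43 and -2.06, a difference of 1.29 ± 0.34 (adjusted p = 0.561). Its second tested probe was also higher on both arrays labelled SR-A1-/-, at -5.21 (below background on W2) and -4.07 against -2.79 and -2.92. Il2rg, the common gamma chain that other leukocytes also make, read 0.64 and 0.97 against 1.09 and 1.24, a difference of 0.36 ± 0.29 without overlap. Il7r, the interleukin 7 receptor of resting T cells and innate lymphoid cells, read -1.05 on W2 and 1.96, 0.82 and 1.82 on W3, K4 and K5. Its difference of 0.86 ± 1.04 turned to -0.64 without W2.

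Among the transcription factors, Gata3, the regulator of type 2 helper T cells and innate lymphoid cells, read -1.02 and -1.76 against -0.09 and -0.43, a difference of 1.13 ± 0.38 (adjusted p = 0.702). Tcf7, the factor TCF-1 of naive and memory T cells, was below background on W2 and W3 and read -4.41 on K4 and -3.56 on K5. It was at least 1.56-fold higher there, measured against the lowest signals called above background on W2 and W3 (group means -4.92 and -3.99). Tbx21, the type 1 regulator T-bet, overlapped, at -4.04 and -4.55 against -3.93 and, below background on K5, -4.72 (difference -0.03 ± 0.40). Foxp3, the regulator of regulatory T cells, was above background on K4 alone, and Eomes on none.

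Other probes of the same genes were read as a check that the rule did not use. Of the 57 probes, 30 were above background on at least 2 arrays and 24 on none. In 8 genes such a silent probe stood beside the tested one, as for Lck, Cd28, Il7r, Klrb1c, Klrk1 and Tcf7 beside Cd247 and Cd4. The 5 genes with 2 tested probes (Cd2, Cd3d, Cd3e, Il2rb and Zap70) had a positive difference at both. The second Cd2 probe overlapped between the groups, at -3.11 and -0.99 against -1.13 and -1.07, unlike the one counted above. For Cd3e the dimmer probe read -3.26 and -4.54 against -3.68 and -2.76, which overlap like those of the brighter one.

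**Figure D3:**
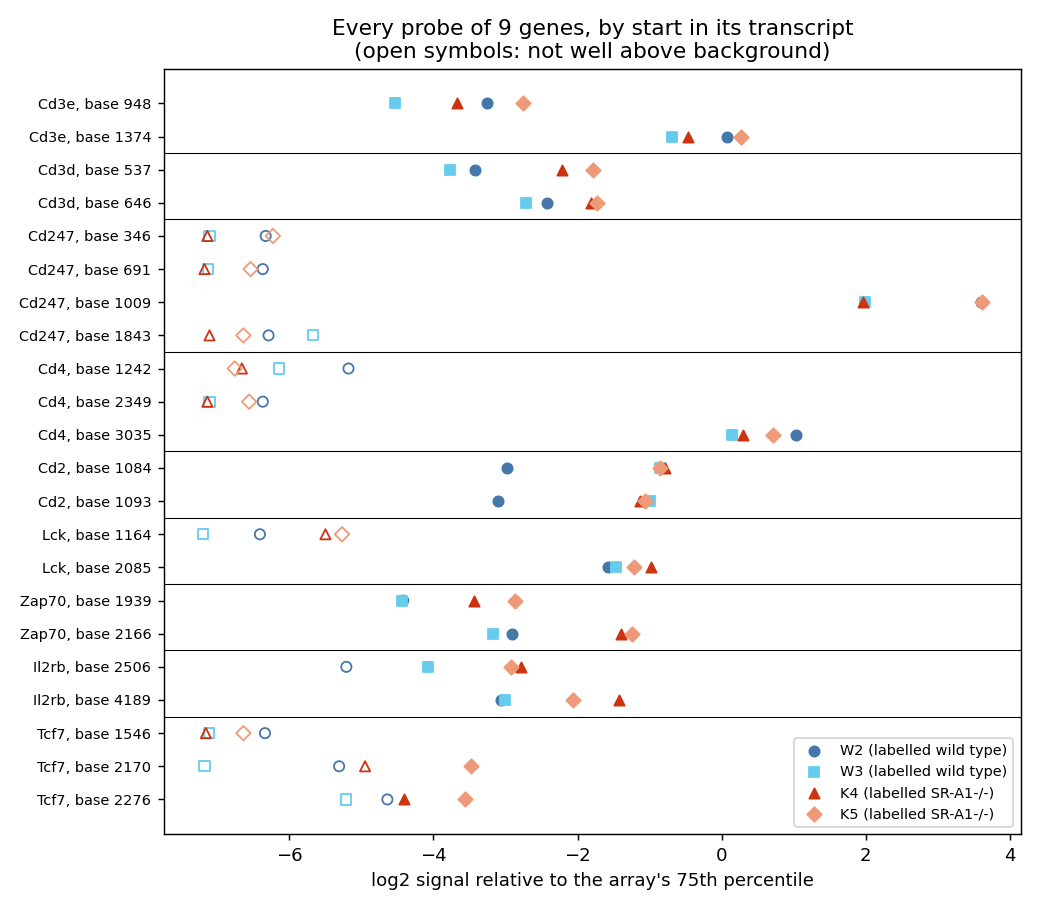
Every probe of 9 genes on each array, labelled by its first base in the transcript, as log2 signal minus the 75th percentile of that array; open symbols were not well above background. Zap70, Cd3d and Il2rb show the red symbols to the right at both probes, while Cd247 and Cd4 each have 1 bright probe beside probes with open symbols only.

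Because the arrays fall into a dimmer and a brighter pair that each hold 1 array of either label, the difference was also taken within each pair. Its median over the 25 genes was 0.61 between K5 and W2 and 0.49 between K4 and W3, against -0.027 and 0.007 over all genes. A positive difference in both pairs was found for 16 of 25 genes, among them Tcf7, against 28.9% of all genes. The difference was at least 2-fold in both pairs for Zap70 (1.65 and 1.78), Cd3g (1.21 and 1.42), Icos (1.95 and 1.06) and Klrk1 (3.2 and 1.32), against 2.09% of all genes. Il7r (2.87 and -1.14) and Lat (0.7 and -1.31) had opposite signs in the pairs, and Prf1 was negative in both (-0.49 and -0.72). With signal level as a block, 10 genes had an unadjusted p under 0.05, of which Prf1 was lower (unadjusted p = 0.0442) and 9 were higher. The 9 include Tcf7, which entered only through K4 and K5, and not Nkg7 (unadjusted p = 0.0591 with the block). Over all genes the share with such a p was 12.5% with the block and 6.29% without it, so the counts of 10 and 8 cannot be set against each other directly.

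**Figure D4:**
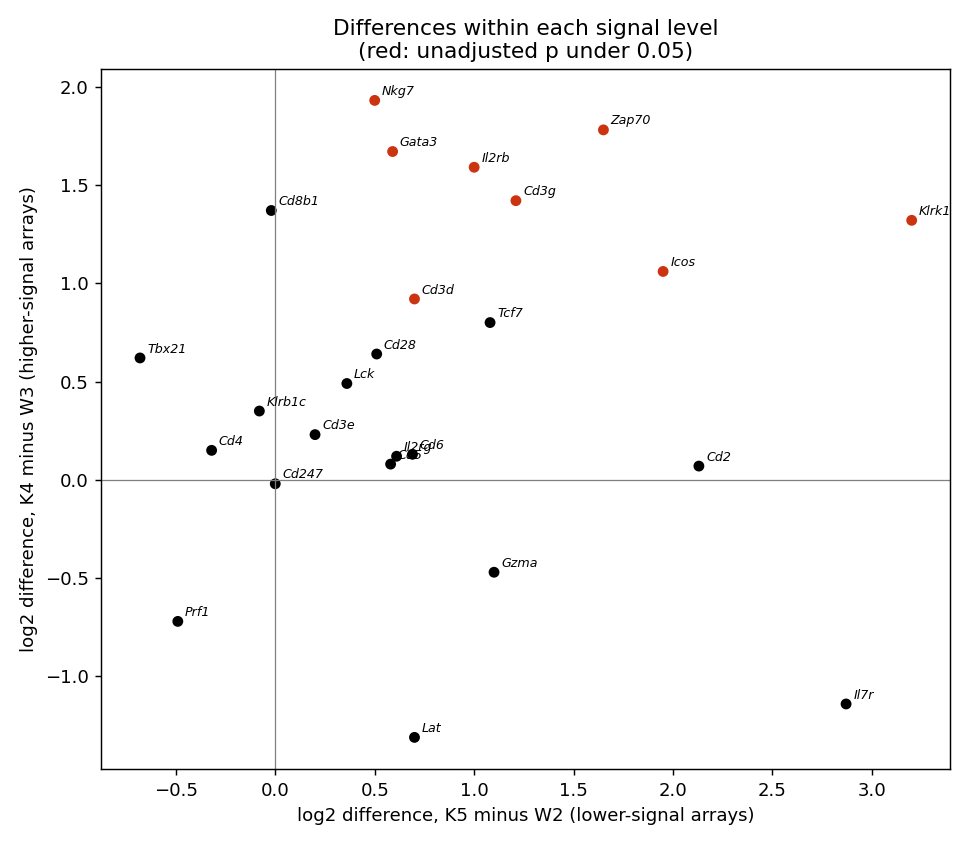
Difference within the dimmer pair of arrays (horizontal, K5 minus W2) against that within the brighter pair (vertical, K4 minus W3) for the 25 tested genes, both in log2 units; red points had an unadjusted p under 0.05. All red points are positive on both axes, and Cd2 (2.13 and 0.07) and Il7r lie far to the right because W2 was low.

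Of the other genes of the same pathways none passed an adjusted p of 0.05. Their counts stand beside 16.1% of all genes higher without overlap, 13.7% lower and 3.84% higher with an unadjusted p under 0.05. A gene below background on W2 and W3 entered only through the arrays where it is high, so each list is also given with such genes set at their bound. Of 35 further genes of T cell receptor signalling, 29 were tested, 21 were higher without overlap and 2 lower (median 0.74), and 7 had an unadjusted p under 0.05, all higher. Without Grap2, which entered only through K4 and K5, these were 20 and 6 of 28, and the median with it at its bound was 0.74. Nfatc2, a calcium-driven factor of T cell activation, differed by 1.68 ± 0.46, Skap1, an adaptor for integrin adhesion, by 1.39 ± 0.38, and Arhgap15 by 1.37 ± 0.44. Grap2, the adaptor that bridges LAT and SLP-76, was below background on W2 and W3 and at least 1.73-fold higher on K4 and K5.

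Activation and checkpoint genes numbered 22, of which 13 were tested, with 9 higher without overlap, 0 lower and 4 with an unadjusted p under 0.05, all higher (median 1.5). Without Il2, which entered only through K4 and K5, these were 8 and 3 of 12, and with it at its bound the median was 0.9. Btla and Pdcd1, inhibitory receptors of T cells, differed by 1.61 ± 0.41 and 2.34 ± 0.76, and the latter by 1.33 with W2 raised to its lowest signal called above background. Ly9, a SLAM family receptor, differed by 1.5 ± 0.49. Il2, the T cell growth factor, was below background on W2 and W3 and at least 1.43-fold higher on K4 and K5. Of 29 homing and differentiation genes 25 were tested, with 13 higher without overlap, 2 lower and 6 with an unadjusted p under 0.05, all higher (median 0.71, and 12 and 5 of 24 genes without Bcl11b). Cxcr3, a chemokine receptor of effector T cells, differed by 1.3 ± 0.35, and Ikzf1, a lymphoid regulator, by 1.39 ± 0.28. The interleukin receptor chains Il18r1 and Il12rb1 differed by 2 ± 0.39 and 0.94 ± 0.29. Bcl11b, a factor needed for T cell commitment, was at least 1.29-fold higher.

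Of 41 further NK and cytotoxic genes, 21 were tested, with 10 higher without overlap, 1 lower and 8 with an unadjusted p under 0.05, all higher (median 0.97). Of these, 4 genes (Klrg1, Klra5, Klrb1b and Il12b) entered only through K4 and K5; without them 6 of 17 were higher without overlap and 5 had such a p, and with them at their bounds the median was 0.68. Several belong to the Ly49 receptors of the NK gene complex on chromosome 6, close copies of each other whose probes may not tell them apart. Klra9 differed by 2.28 ± 0.43 and Klra8 by 2.25 ± 0.55, and Klra5 was at least 1.6-fold higher, whereas Klra1 read lower on both arrays labelled SR-A1-/- at -0.85 ± 0.48. Klrg1, a receptor of mature effector cells on the same chromosome, was at least 1.37-fold higher and Klrb1b at least 2.42-fold. Il18, a cytokine made largely by myeloid cells that stimulates T and NK cells, differed by 1.42 ± 0.29.

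Markers of other leukocytes differed beside these genes, and their part in the result was not tested. Median differences were 1.08 for the pan-leukocyte list, 1.15 for macrophages and 1.91 for dendritic cells and MHC class II. The T and NK cell genes had 0.58, the B cell list -0.27 and the neutrophil list 0. The counts without overlap that follow stand beside 16.1% of all genes higher and 13.7% lower. For the 10 pan-leukocyte genes, all tested, 4 were higher without overlap and 0 lower, and their summed linear level, relative to the 75th percentile, was 15.1 and 30.4 on W2 and W3 against 40.4 and 36.2 on K4 and K5. Arhgdib differed by 0.99 ± 0.29 and Cytip by 1.83 ± 0.68. The macrophage list (11 of 12 tested) had 5 higher and 1 lower without overlap. Its median level was 0.75 and 1.62 on W2 and W3 against 3.3 and 2.06 on K4 and K5. By the sums, in which the brightest genes weigh most, W3 was the highest array, with 68.2 and 318 against 245 and 187. In the list for dendritic cells and MHC class II (10 of 11 tested), which presents antigen to CD4 T cells, 7 were higher and 0 lower, with sums of 34.3 and 72.5 against 250 and 189. Of the B cell genes (9 of 10 tested), 0 were higher and 3 lower without overlap, with a median of -0.27 and sums of 4.03 and 8.17 against 8.39 and 6.38. Ms4a1, which encodes CD20, differed by -0.90 ± 0.42. Whether T cell and B cell genes differ in their response was not tested. Genes of lymph node stroma (3 of 6 tested) had sums of 61.5 and 26.6 against 45.6 and 66.6, with 1 higher without overlap. That gene was Ccl19, a chemokine that draws CCR7-bearing T cells (1.08 ± 0.36), while Ccl21a, of the same role, differed by 0.35 ± 0.53 and Glycam1, a ligand for lymphocyte homing, by -0.45 ± 0.46. The smooth muscle list had sums of 1970 and 1450 against 1140 and 1370, with 5 of its 10 genes lower without overlap. Skeletal muscle genes differed more: 7 of 10 were lower without overlap and 1 higher (median -2.06), with sums of 1590 and 495 against 188 and 304. White adipocyte genes had sums of 437 and 789 against 740 and 52, so that K5 stood apart from the other 3 arrays. Adipoq, the fat cell hormone adiponectin, read 4.5, 5.24 and 5.36 on W2, W3 and K4 and -2.93 on K5. Without K5 the median over the T and NK cell genes was 0.49. The part of muscle and fat in the differences was not tested. All genes of the smooth muscle, fibroblast and endothelial lists were above background on 2 or more arrays.

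**Figure D5:**
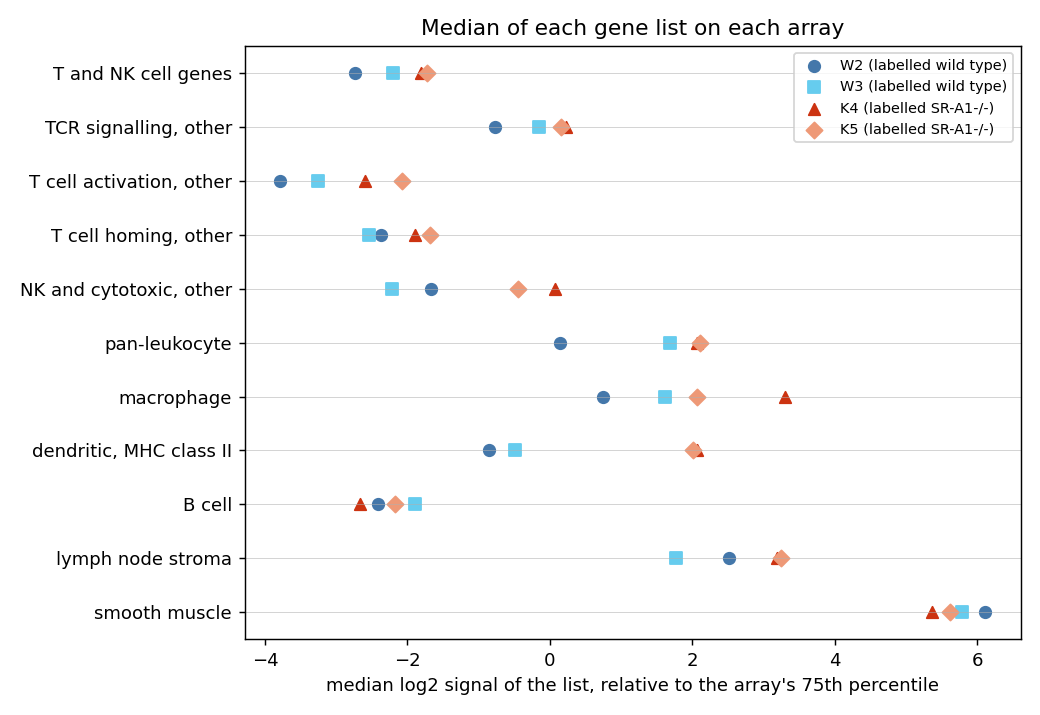
Median level of each gene list on each array, as log2 signal minus the 75th percentile of that array; blue symbols are arrays labelled wild type and red symbols arrays labelled SR-A1-/-. The T and NK cell genes stand at -2.74 and -2.2 on the blue arrays and -1.81 and -1.73 on the red ones, while the colours overlap for the B cell list, at -2.42 and -1.9 against -2.67 and -2.17. The macrophage list stands at 0.75 and 1.62 against 3.3 and 2.06. The dendritic cell and MHC class II list stands at -0.86 and -0.49 against 2.06 and 2.01.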

How the data were processed

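Total RNA of 4 aortic samples was labelled with Cy3 and hybridised to 1-colour Agilent mouse arrays. Per the file headers, the deposited processed signal is an intensity from Agilent Feature Extraction 12.0.3.1, background-subtracted and detrended within the array; the submitters' processing notes name version 10.7 and limma. Mean spot signals and local backgrounds, used for normexp, are unprocessed intensity columns, and the flags (0 or 1) are the software's, per the file headers. The values deposited by the authors is on a log2 scale with nearly equal columns and was an alternative.

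Outlier spots and controls were left out, repeated spots averaged, and log2 signals centred on each array's 75th percentile. Probes called above background on 2 or more arrays were kept, and the brightest per gene name was fitted with lmFit and eBayes of limma 3.58.1 (R 4.3.3); p-values are two-sided and adjusted by Benjamini-Hochberg over all genes. The code was run on simulated normal noise with shifts added, which checks the code and not the differences reported here. A group below background on both arrays gave a lower bound ("at least"), against the mean over its arrays of the higher of the lowest signal called above background and the probe's own value. No p-value is printed beside a bound, because the fit used the values below background as they were read. Files were read with data.table (version 1.17.8) and plotted with matplotlib 3.10.9 in Python 3.11.15.

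The genes and lists were chosen with earlier results of these data known. The text names all 34 genes, the 3 of each pathway list with the smallest p and up to 6 with an unadjusted p under 0.05, and at most 2 per lineage list; other genes, such as Klra1, were chosen after their values were seen. A few genes that this rule names are not reported here. Alternatives were other normalisations, normexp with offset 50, other filters, all probes averaged, outliers kept, trend, robust or weighted fits, signal level as a block and each array left out. The number of arrays limits the precision.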

Additional observations from a re-analysis of the deposited data

How the results depend on the processing

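The median difference of 0.58 kept its direction under all alternatives run and moved by more than the spread between arrays only with normexp, to 0.18, where 7 genes were higher without overlap in place of 14 and 2 had an unadjusted p under 0.05 in place of 8 (11.1% and 4.11% of all genes at that setting). Leaving out each array in turn gave medians of 0.49 to 0.67, 15 to 19 genes higher without overlap, 1 to 3 lower, and 3 to 9 with an unadjusted p under 0.05; the count was 3 without K4 and 4 without K5. With an array left out 30.9% to 36.2% of all genes were higher without overlap, in place of 16.1%. The share of all genes with an unadjusted p under 0.05 also rose without W2 or W3 and fell without K4 or K5. The counts of 3 to 9 therefore cannot be set against 8 directly. The 1 to 3 lower genes have no share of all genes beside them and are not read as a change. Under median, quantile and cyclic loess normalisation and in the deposited values 1 gene, Prf1, was lower without overlap. Genes past an adjusted p of 0.05 over the whole array numbered 2 with array weights, 5 with an intensity trend, 7 with median scaling, 8 each with quantile, cyclic loess, the deposited values and no filter, and 22 with normexp. They numbered 0 to 525 when an array was left out, with 277 without W2 and 525 without W3, where the lone array was assumed to vary like the other group. The latter included Cd2 (2.16, adjusted p = 0.0232), Il7r (2.37, adjusted p = 0.0259) and Klrk1 (3.38, adjusted p = 0.00143), and no other alternative called any of the 34 genes. Of the 25 genes, 16 kept their direction throughout. Cd247 turned to 0.01 with cyclic loess, 0.02 with normexp and 0.04 with quantile normalisation and in the deposited values, Gzma to -0.14 and Klrb1c to -0.07 with normexp. Over the arrays left out, Cd247 ranged from -0.83 to 0.81, Cd3e from -0.17 to 0.6, Cd4 from -0.53 to 0.36, Cd5 from -0.17 to 0.82, Gzma from -1.11 to 1.73, Il7r from -0.64 to 2.37, Klrb1c from -0.26 to 0.53, Lat from -0.97 to 0.36 and Tbx21 from -0.42 to 0.36. The cause of these changes was not tested. No paired analysis was possible because the labels number the arrays differently in each group; the pairs by signal level were set from the arrays and are no pairing of animals, and a slide block could not be fitted with 1 slide. Of the 57 probes, 24 were above background on no array and give no difference.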

Other observations

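Probes for the T cell receptor chains themselves, which the gene set does not hold, were found by their descriptions after the values had been seen. Of 10 probes for constant regions, the part common to every rearranged chain, 7 were above background on at least 2 arrays. All 7 read higher on both arrays labelled SR-A1-/-, as did 16.1% of all tested genes. Of these, 3 were below background on W2 and W3 and so entered only through the arrays where they are high. The other 4, all beta probes, differed by 1.29 to 1.62. They repeat the segments beta constant region 1 and beta constant 2 and are not independent readings. The beta constant region 1 probe read -2.21 on W2 and -2.68 on W3 against -1.02 on K4 and -0.62 on K5, a difference of 1.62 ± 0.33 (limma adjusted p = 0.389). A beta constant 2 probe read -2.6 and -2.87 against -1.08 and -1.3, a difference of 1.54 ± 0.29 (adjusted p = 0.368). The alpha constant probe was below background on W2 and W3 and at least 1.91-fold higher on K4 and K5. Probes for gamma constant 3 and gamma constant 1, both segments of the gamma locus, were likewise bounded at 3.72-fold and 2.74-fold at least. The delta constant region and the gamma constant 4 probes were above background on no array.

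The other probes found by these descriptions, mostly for variable segments, gave another picture. They include a probe for Ptcra, the pre-T cell receptor alpha chain, which is not a segment of these loci. Of 115 such probes 93 were above background on no array and 17 were tested. Of the 17, 0 were higher without overlap (16.1% of all genes) and 1 was lower (13.7% of all genes). Their differences ran from -0.8 to 0.54 (median -0.05). The difference between constant and other probes was not tested. Genes of gamma delta T cells and innate lymphoid cells gave 7 tested of 20, with 2 higher without overlap (16.1% of all genes) and 0 lower (median -0.02). Il1rl1, the interleukin 33 receptor carried by type 2 innate lymphoid cells, regulatory T cells and mast cells, differed by 1.25 ± 0.41. Zbtb16, the factor PLZF of innate-like lymphocytes, and Hpgds, a prostaglandin synthase, differed by 0.63 ± 0.33 and 0.89 ± 0.84. The other 4 tested genes had negative differences, Il13 of -0.26, Sox13 of -0.16, Rora of -0.13 and Id2 of -0.02. Neutrophil markers (7 of 10 tested) had a median of 0 with 1 higher without overlap (16.1% of all genes).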
